A study of Danio rerio with 3 samples.

Results

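The aquaporin genes aqp1a.1 and aqp8a.1 were examined in RNA from sorted cells of zebrafish embryos, and both were found by symbol in all 3 libraries of the series. They are 2 of the 14581 gene symbols in the first deposited table and 2 of the 33734 gene IDs in the second, where aqp1a.1 is ENSDARG00000023713 and aqp8a.1 is ENSDARG00000045141. Both were chosen by their FPKM, a level scaled to transcript length and to the size of the library, which was high in the first table and known for every library. All levels below are therefore descriptions, with no test. They are set against the other genes whose symbol starts with aqp, which number 12 in each table.

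The embryos were labelled wild-type apart from their transgenes, were untreated and were collected at 72 hours after fertilization. The double positive library came from kdrl:mCherry; sele:GFP embryos and holds cells positive for both reporters. The reporters are driven by regulatory sequence of kdrl, an endothelial Vegf receptor gene, and of sele, the E-selectin gene. The other libraries came from kdrl:GFP embryos, 1 of GFP positive and 1 of GFP negative cells. Their columns carry the codes EH_1 and EH_2, and no label says which code is the positive population. They are called by these codes, and no direction between GFP positive and negative cells is drawn. Embryos of incrossed stocks were homogenized whole before sorting, and how many went into a sort is not stated. There was 1 library per population with no replicates, so no value has an error between samples.

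Aquaporins are membrane channels that let water cross along an osmotic gradient, and some of them also pass glycerol or other small solutes. Human AQP1 is the classical water channel of red blood cells, kidney tubules and capillary endothelium. Mammalian AQP8 passes water and also hydrogen peroxide and ammonia. In zebrafish, both aqp1a.1 and aqp8a.1 have been studied in endothelial cells of growing vessels, where water inflow contributes to cell migration.

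FPKM divides by transcript length, so genes can be ranked within a library. The 3 libraries had a median of 5.98 FPKM (double positive), 1.36 FPKM (EH_1) and 1.57 FPKM (EH_2) over all features of their tables. The tables list different features: 12.7% of symbols in the first and 28.0% to 29.3% of IDs in the second were listed at 0. Over the 12507 symbols found in both tables the medians were 6.86, 5.80 and 5.82 FPKM. A single feature held a large part of the summed FPKM of each library. It was rn7sk with 9.95% in the double positive library, and Metazoa_SRP with 24.4% in EH_1 and 22.9% in EH_2. These features also enter the scaling to the same FPKM sum used below. The sources used here give no fragment numbers, so the depth is unknown and the values carry no counting interval. The tables were normalized separately, so levels are set side by side across them and not compared.

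The water channel gene aqp1a.1 was the most abundant aquaporin transcript in the double positive and EH_1 libraries. It stood at 908 FPKM in the double positive library, at 215 FPKM in EH_1 and at 19.2 FPKM in EH_2. These levels were rank 69, rank 339 and rank 3567 of their tables, or the 99.5th, 99.0th and 89.4th rank percentile. The rank was lowest in EH_2, where aqp1a.1 still lay in the upper part of the library. Over the symbols of both tables the rank percentiles were 99.5, 98.4 and 80.3.

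The gene aqp8a.1 was the second aquaporin in the same libraries and was low in EH_2. It stood at 568 FPKM in the double positive library, at 73.8 FPKM in EH_1 and at 1.22 FPKM in EH_2. The ranks were 120, 893 and 17898, at the 99.2nd, 97.4th and 46.9th rank percentile. The percentile in EH_2 is raised by the features listed at 0, and over the symbols of both tables it was 20.9, against 99.1 and 95.1 in the other libraries. Among IDs of at least 1 FPKM in EH_2, aqp8a.1 lay at the 3.99th percentile. The order of the libraries by rank percentile was thus the same for both genes, and the genes lay farthest apart in EH_2.

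**Figure D1:**
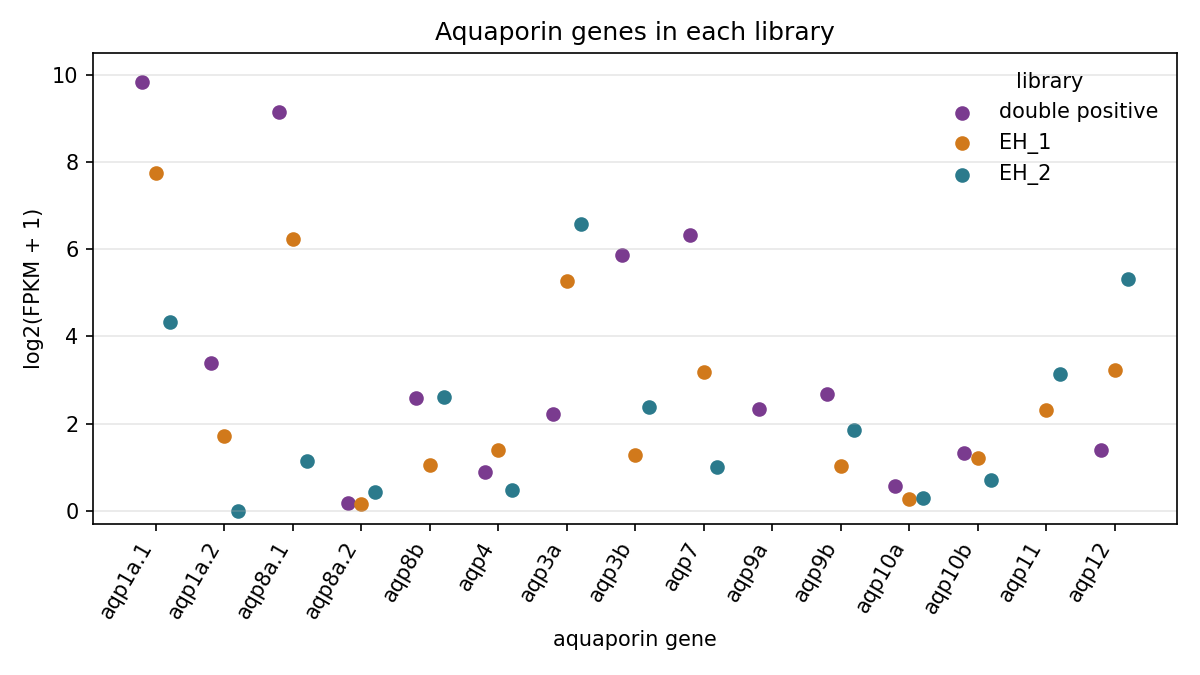
Level of each aquaporin gene as log2(FPKM + 1) on the vertical axis, with 1 point per library and rows of one symbol summed. The points of aqp1a.1 and aqp8a.1 are the highest of the double positive and EH_1 libraries, whereas aqp3a (94.8 FPKM) is the highest of EH_2; aqp9a and aqp11 have points from 1 table each.

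The ratio of aqp1a.1 to aqp8a.1 followed from these levels. It was 1.60 in the double positive library, 2.91 in EH_1 and 15.7 in EH_2. Together the genes held 89.7% of the summed FPKM of the aqp genes in the double positive library, with 55.2% for aqp1a.1 and 34.5% for aqp8a.1. In EH_1 they held 81.2%, of which 60.4% was aqp1a.1 and 20.7% aqp8a.1. In EH_2 they held 11.5%, of which 10.8% was aqp1a.1 and 0.690% aqp8a.1.

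The relation of each gene to endothelial transcripts of the same library was set out with 14 pan-endothelial genes found in both tables, among them kdrl, the cadherin gene cdh5 and the Ets factor gene fli1a. Their median was 230.4 FPKM in the double positive library, 57.7 FPKM in EH_1 and 0.579 FPKM in EH_2. The level of aqp8a.1 was 2.46, 1.28 and 2.102 times this median. The level of aqp1a.1 was 3.94, 3.73 and 33.1 times the median. In EH_2, aqp1a.1 was higher than each of the 14 genes, the highest of which was fli1a at 14.6 FPKM, while 6 of them were higher than aqp8a.1. The ratios were computed after the levels had been seen, and those of EH_2 divide by a low median.

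Against single genes the ratios of aqp8a.1 depended on the gene taken. The level of aqp8a.1 was 1.33 times that of kdrl in the double positive library, 1.17 times in EH_1 and 0.858 times in EH_2. For aqp1a.1 the ratios to kdrl were 2.12, 3.42 and 13.5. Against cdh5, aqp1a.1 stood at ratios of 1.08 and 1.06 in the double positive and EH_1 libraries and at 24.4 in EH_2. The ratios of aqp8a.1 to cdh5 were 0.673, 0.365 and 1.55, so that EH_2 had the lowest ratio against kdrl and the highest against cdh5. In EH_2, aqp8a.1, kdrl and cdh5 stood at only 1.22, 1.42 and 0.786 FPKM. All ratios in EH_2 thus divide by low values and are uncertain. For aqp1a.1 the ratio was highest in EH_2 against the median, kdrl and cdh5. It was not highest there against fli1a, the highest of the pan-endothelial genes in EH_2. In the double positive, EH_1 and EH_2 libraries fli1a stood at 383, 242 and 14.6 FPKM, beside 908, 215 and 19.2 FPKM for aqp1a.1. The excess of aqp1a.1 in EH_2 thus depends on the gene taken. In bulk samples, fewer cells of a type and less RNA per cell cannot be told apart.

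**Figure D2:**
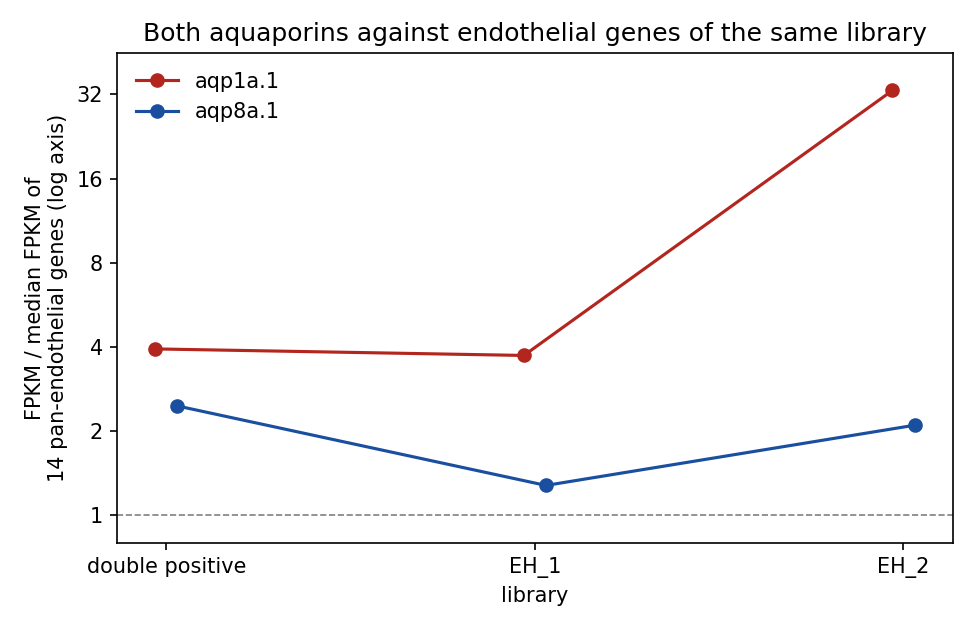
FPKM of aqp1a.1 and aqp8a.1 divided by the median FPKM of 14 pan-endothelial genes of the same library, on a log axis, with 1 point per library and lines that only join the points of a gene. The ratio of aqp8a.1 stays between 1.28 and 2.46, and that of aqp1a.1 is 3.73 to 3.94 in 2 libraries and 33.1 in EH_2. The median in EH_2 is only 0.579 FPKM, so the ratios there are uncertain.

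Each gene has a near relative next to it in the genome, and these relatives were much lower. In the gene order of the RefSeq table for assembly GRCz12tu, which is not the build of the data, no annotated gene starts between aqp1a.1 and aqp1a.2 or between aqp8a.1 and aqp8a.2. The relative aqp1a.2 stood at 9.48 FPKM in the double positive library, at 2.30 FPKM in EH_1 and was listed at 0 in EH_2. The level of aqp1a.1 was 95.7 times that of aqp1a.2 in the double positive library and 93.5 times in EH_1. The relative aqp8a.2 stood at 0.135, 0.114 and 0.339 FPKM. The level of aqp8a.1 was 4200 times that of aqp8a.2 in the double positive library, 646 times in EH_1 and 3.59 times in EH_2. How the processing divided reads between such copies is not given, so the low values of the relatives are uncertain.

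The other aquaporins had their own order in each library. In the double positive library the highest after the 2 genes were aqp7 and aqp3b, which belong to the glycerol-passing aquaporins in mammals, at 79.4 and 57.1 FPKM. The remaining 10 lay between 0.135 FPKM (aqp8a.2) and 9.48 FPKM (aqp1a.2). The level of aqp1a.1 was 11.4 times and that of aqp8a.1 7.14 times that of aqp7. In EH_1 the third aquaporin was aqp3a at 37.6 FPKM, whose mammalian relative is the aquaporin of epidermis. There aqp1a.1 was 5.72 times and aqp8a.1 1.96 times as high as aqp3a.

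In EH_2 the order differed. The highest aquaporin was aqp3a at 94.8 FPKM, followed by aqp12 at 39.1 FPKM, whose mammalian relative is found in pancreatic acinar cells. The gene aqp1a.1 was the third, and aqp3a was 4.95 times as high. The gene aqp8a.1 was the eighth of 14, and aqp3a was 77.9 times as high. It lay between aqp9b at 2.62 FPKM and aqp7 at 1.002 FPKM. The lens aquaporin genes mipa and mipb, which were not counted in the family, stood between 0.961 and 4.94 FPKM over the 3 libraries.

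The EH_1 and EH_2 columns come from 1 table and were set against each other as log2((FPKM + 1) of EH_1 over that of EH_2). A gene was called where it differed by at least 2-fold on this scale, which understates differences of low genes. There is 1 library on each side, so the difference has no replicate check and no p-value. Of the 15 aqp gene IDs, 4 were at least 2-fold higher in EH_1, while 6.15% of all 33734 IDs were. Another 5 were at least 2-fold higher in EH_2, while 7.49% of all IDs were, and 6 were under 2-fold. The 4 include aqp1a.1 and aqp8a.1, which were chosen by their level. IDs of low level can hardly be called, which lowers both shares of all IDs. The median log2 difference of the 15 IDs was -0.26, and that of all IDs was 0.

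The 2 largest differences towards EH_1 in the family were those of aqp8a.1 and aqp1a.1. The difference of aqp8a.1 was 5.08 on the log2 scale, the 43rd highest of all IDs, and the FPKM values themselves were 60.7-fold apart. The difference of aqp1a.1 was 3.42, the 167th highest, with FPKM values 11.2-fold apart. The glyceroporin gene aqp7 followed at 2.19, with 8.11 FPKM in EH_1 and 1.002 FPKM in EH_2, and aqp1a.2 at 1.72. Higher in EH_2 were aqp12 (-2.11), aqp3a (-1.31), both IDs of aqp8b (-1.21 and -1.20) and aqp3b (-1.10). The relative aqp8a.2 differed by -0.26 and was not called. It stood at 0.114 FPKM in EH_1 and 0.339 FPKM in EH_2, too low for its sign to be read. The values of aqp8b were split over 2 IDs and are uncertain for that reason.

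The gene lists were read over the 12507 symbols of both tables, of which 6.89% were at least 2-fold higher in EH_1 and 9.32% in EH_2. These shares are the background for every list count that follows. All 14 pan-endothelial genes were at least 2-fold higher in EH_1, with log2 differences from 1.84 (vwf) to 6.83 (cdh5) and a median of 4.39. The difference of aqp8a.1 lay inside this range, with 5 of the 14 genes above it. The difference of aqp1a.1 was lower than that of 13 of the 14. These values were not used to assign the codes to populations.

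**Figure D3:**
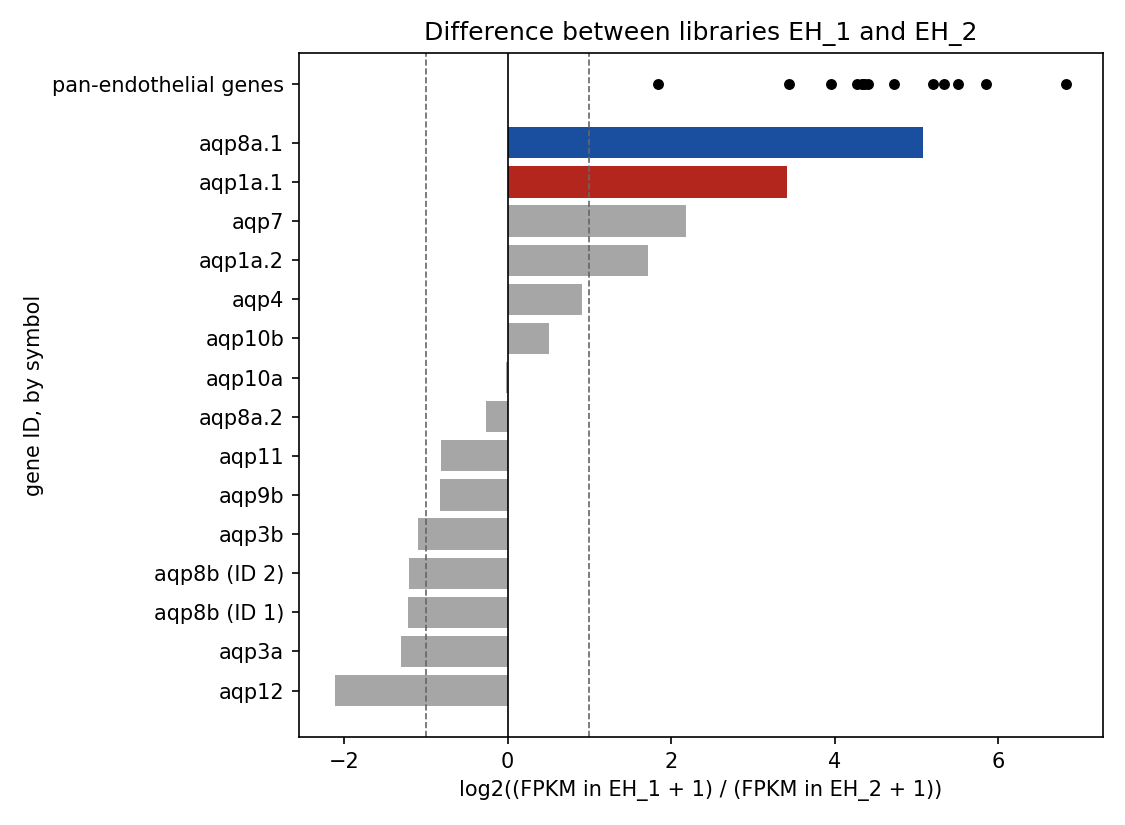
Difference between EH_1 and EH_2 for the 15 aqp gene IDs (bars) and the 14 pan-endothelial genes (points), as log2 of the ratio of FPKM + 1, with 1 library each; dashed lines mark 2-fold. The bars of aqp8a.1 (5.08) and aqp1a.1 (3.42) are the longest to the right and that of aqp12 (-2.11) the longest to the left.

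The genes whose rank pattern was most like each aquaporin were sought among the 12507 symbols of both tables, by the Euclidean distance between rank percentiles over the 3 libraries. For aqp8a.1 the nearest were kdrl at a distance of 1.96 percentile points and the scavenger receptor gene stab1 at 2.06. They were followed by egfl7, a secreted endothelial factor gene, the proteoglycan gene srgn, cdh5, the junction gene esama, myct1, afap1l1b, gpr182 and zgc:113363, the last at 6.76. Of these 10 genes, 4 were in the pan-endothelial list, which holds 14 of the 12507 symbols. This count is no test, as nearness was measured on the levels by which aqp8a.1 was chosen. Genes near it must be high in the double positive library, and most pan-endothelial genes were. Apart from vwf at 54.3, they lay at rank percentile 93.4 (tek) or above there. The gene stab1 stood at 453, 74.3 and 1.47 FPKM in the double positive, EH_1 and EH_2 libraries, next to 568, 73.8 and 1.22 FPKM for aqp8a.1. In EH_2 the 10 genes stood between only 0.632 FPKM (myct1) and 1.84 FPKM (esama). Their rank percentiles there ran from 15.2 to 25.9, so the order of nearness rests on low values and is uncertain.

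For aqp1a.1 the nearest was igfbp7, an insulin-like growth factor binding protein gene, at a distance of 2.04. Its levels were 573 FPKM, 104 FPKM and 20.3 FPKM in the same order of libraries. The others were the lysosomal protease gene lgmn, kank3, the Notch receptor gene notch1b, the Map kinase phosphatase gene dusp6, cd276, the G protein gene gnai2a, hopx, fli1a and the apelin gene apln, the last at 6.11. Of these 10 genes, 1 was in the pan-endothelial list, beside 14 of all 12507 symbols, a count that is no test for the same reason as above. The aquaporins were not near each other, at 59.4 points, mostly from their ranks of 80.3 and 20.9 in EH_2.

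These neighbours depended on the measure. By distance in log2(FPKM + 1), 4 of the 10 genes were shared for aqp8a.1 (kdrl, stab1, myct1 and gpr182) and 2 for aqp1a.1 (igfbp7 and fli1a). The pan-endothelial genes among the 10 were then kdrl, ramp2 and clec14a for aqp8a.1, and fli1a and cldn5b for aqp1a.1. With EH_2 left out, 1 and 0 were shared.

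**Figure D4:**
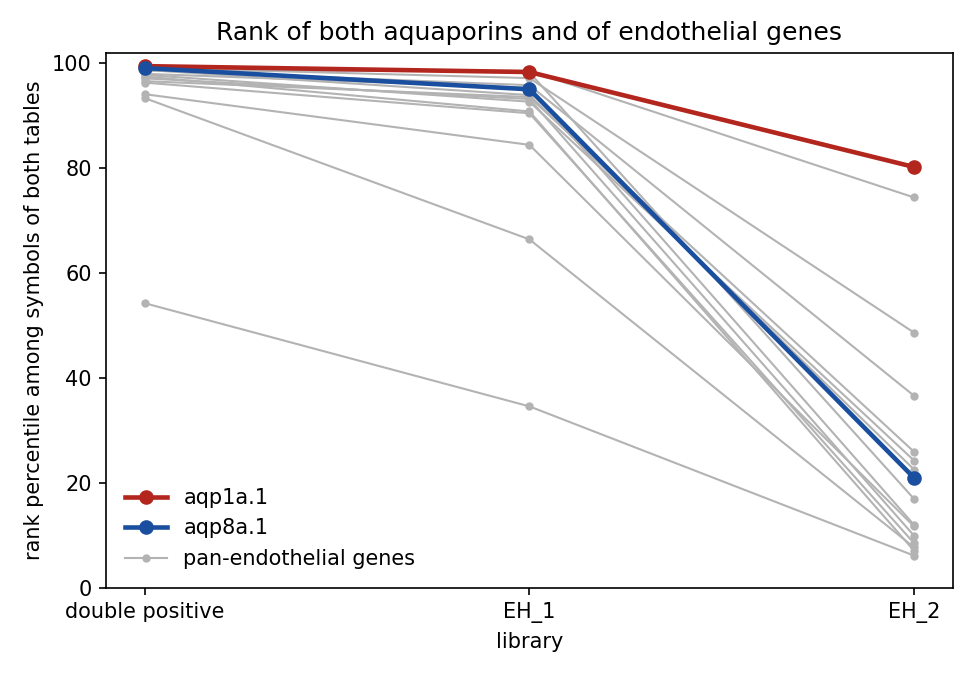
Rank percentile among the 12507 symbols of both tables, for aqp1a.1, aqp8a.1 and 14 pan-endothelial genes (grey) in the 3 libraries; lines join the values of a gene. In EH_2, aqp8a.1 (20.9) lies within the spread of the grey lines and aqp1a.1 (80.3) above all of them, with fli1a (74.4) next.

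Genes of arterial endothelium were called in part. Of 14 in both tables, 8 were at least 2-fold higher in EH_1 and none was higher in EH_2, beside 6.89% and 9.32% of all shared symbols, with a median log2 difference of 1.54 against 0 over these symbols. The Notch ligand gene dll4 stood at 167, 35.0 and 5.14 FPKM in the double positive, EH_1 and EH_2 libraries. Its fellow ligand gene dlc stood at 197, 31.9 and 8.86 FPKM, and notch1b at 186, 87.6 and 21.3 FPKM. The ephrin gene efnb2a stood at 183, 54.0 and 37.4 FPKM and was not called. The SoxF gene sox17 was listed at 0 in EH_2 and at only 0.627 FPKM in EH_1, and was not called. The double positive levels of aqp1a.1 and aqp8a.1, by which both were chosen, were above that of each of the 14.

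Genes of venous, lymphatic and scavenger endothelium were called higher in EH_1 in 7 of 10 cases and in EH_2 in 0, with a median log2 difference of 3.97. The highest in the double positive library, stab1, dab2, gpr182 and sele, stood between 415 and 453 FPKM there. This was below aqp8a.1, which was chosen by its high level in that library. The exceptions to the call were nr2f2 and prox1a, which encode venous and lymphatic factors, and ifi30. Their differences were 0.19, 0.14 and 0.86.

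Aquaporins are also used by other cell types, whose markers were read in the same libraries. The summed FPKM of 13 erythroid genes was 565 in the double positive library, 5159 in EH_1 and 5351 in EH_2, and 1 of the 13 (gata1a, 1.40) was called higher in EH_1. The median log2 difference of the list was 0.12. The globin gene hbae3 stood at 252, 4413 and 4650 FPKM, and made up most of these sums in EH_1 and EH_2. Only hbae1, blvrb and gata1a had their highest listed value in the double positive library. They stood at 200.01, 142 and 136 FPKM, at 24.3, 14.5 and 13.2 FPKM and at 8.95, 6.56 and 1.86 FPKM. All other members had their lowest listed value there, among them hbbe1.1 at 28.5, 252 and 260 FPKM and alas2 at 4.56, 24.7 and 22.2 FPKM. The tables were normalized separately, so this is an order of listed values and not a comparison of levels. The gene slc4a1a, which encodes the red cell anion exchanger, stood at 10.4, 50.3 and 26.6 FPKM. The globin gene hbaa1 was listed at 0 in the double positive library. The part of red cells in the aqp1a.1 level of EH_2 was not tested.

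The markers of ionocytes, the skin cells that exchange salts with the water, summed to 34.2, 37.4 and 59.0 FPKM over 10 genes. Of these genes, 0 were called higher in EH_1 and 2 in EH_2. The largest part of the sums came from the proton pump gene atp6v1aa at 31.2, 24.0 and 29.1 FPKM. The genes ca15a and rhcgb were listed at 0 in the double positive library. The markers of epidermis summed to 2004, 4056 and 7627 FPKM over 10 genes, and 3 were called higher in EH_2 and 2 in EH_1. The keratin gene krt4 stood at 39.7, 1411 and 3081 FPKM, beside 3.66, 37.6 and 94.8 FPKM for aqp3a. The simple epithelial keratin genes krt8 and krt18 were the ones called higher in EH_1, with krt8 at 1494, 486 and 235 FPKM and krt18 at 370, 343 and 127 FPKM. These genes made up most of the epidermal sum in the double positive library. All other members of the epidermal list had their lowest listed value there. The part of these cells in the aquaporin levels was not tested.

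Markers of internal organs and of the nervous system were mostly called higher in EH_2 where they were called. The counts were 5 of 10 for pronephros, 7 of 11 for liver, gut and pancreas, 6 of 12 for lens and retina and 5 of 9 for glia and neural progenitors. In EH_1, 0, 1, 0 and 1 of these were called higher, namely cpa5 (4.24) and the glial list gene cx43 (1.86). In the double positive, EH_1 and EH_2 libraries the pronephros genes summed to 30.9, 25.5 and 57.1 FPKM. The lens and retina genes summed to 194, 62.3 and 157 FPKM, and the glia and neural progenitor genes to 385, 241 and 380 FPKM. Most of the glial sum in the double positive library came from cx43 at 161, 40.1 and 10.4 FPKM and glula at 158, 34.6 and 23.1 FPKM. All other members of the glial list had their lowest listed value in the double positive library. Of all shared symbols, 9.32% were called higher in EH_2 and 6.89% in EH_1. The sums over the 11 liver, gut and pancreas genes were 137, 223 and 796 FPKM, and aqp12 stood at 1.64, 8.30 and 39.1 FPKM in the same order. The highest of these genes in EH_2 were tfa at 483 FPKM and apoa2 at 204 FPKM. The digestive enzyme genes differed among themselves, with try at 4.54, 3.80 and 19.8 FPKM and cpa5 at 2.14, 63.1 and 2.40 FPKM. The genes cpb1 and ela2 stood at 55.3, 4.56 and 4.06 FPKM and at 1.80, 1.44 and 0.579 FPKM. The part of pancreatic cells in the aqp12 level was not tested. The kidney transporter gene slc13a1 was listed at 0 in the double positive and EH_1 libraries and at only 0.078 FPKM in EH_2. Of 10 mural genes, which mark the contractile cells around vessels, 3 were called higher in EH_1 and 0 in EH_2, with a median log2 difference of 0.18. The 3 were rgs5b at 509, 104 and 7.07 FPKM, myh11a (2.98) and foxc1b (1.11). Other mural genes were not called, among them pdgfrb (0.24), acta2 (-0.28), abcc9 (-0.55), rgs5a (-0.59) and notch3 (-0.61).

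A further list held genes taken as partners of water channels in ion transport, volume and pH control. Of its 48 entries, 27 were in both tables. The median was 16.6 FPKM in the double positive library, 14.6 FPKM in EH_1 and 9.10 FPKM in EH_2. Of the 27, 6 were called higher in EH_1 and 4 in EH_2, beside 6.89% and 9.32% of all shared symbols, with a median log2 difference of 0.35. With upper quartile scaling 4 were called higher in EH_1, and with a pseudocount of 0.1 the counts were 8 and 6. The highest in the double positive library was the chloride channel family gene clic2 at 351 FPKM, with 110.1 FPKM in EH_1 and 7.59 FPKM in EH_2, a difference of 3.69. The sodium pump genes atp1b1a and atp1a1a.1 stood at 304 and 169 FPKM there and were not called, at 0.26 and 0.18.

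The membrane linker gene msna stood at 162, 57.2 and 14.3 FPKM, a difference of 1.93. Other members called higher in EH_1 were clic1 (2.102), the carbonic anhydrase family genes ca4a (1.59) and ca8 (1.07), and the anion exchanger gene slc4a2a (1.03). Called higher in EH_2 were the sodium pump genes atp1b3a (-1.45) and atp1b3b (-1.41), the carbonic anhydrase gene ca2 (-1.06) and the bicarbonate transporter gene slc4a4a (-1.03). The sodium, potassium and chloride cotransporter gene slc12a2 stood at 69.2, 74.8 and 56.0 FPKM. The gene ca4b was listed at 0 in the double positive and EH_1 libraries and at only 0.109 FPKM in EH_2. No member of the list reached the level of aqp1a.1 or aqp8a.1 in the double positive library. Both genes were chosen by their high level there, so this order follows from the choice.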

How the data were processed

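RNA was sequenced from 3 sorted populations, 1 library each. The submitters' processing notes name the trimmer cutadapt, the aligner TopHat2 (2.0.11), Cufflinks (2.2.1) and the genome build Zv9, also called danRer7. Annotation, filters, strand setting and treatment of shared reads are not stated there. The authors deposited FPKM values, estimates rather than counts, per symbol in one table and per Ensembl ID in the other. The second table does not name its unit, which was read as FPKM from the use of Cufflinks. Its columns EH_1 and EH_2 belong to the kdrl:GFP libraries by the workbook both cite, and 0 value columns were left unused.

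Ranks, with ties at the mean, were taken over all rows of a table. Over the 12507 symbols in both tables, rows of one symbol were summed. Differences used a pseudocount of 1 FPKM. The members and the 12 gene lists, with 150 of 199 entries found, were chosen with earlier results of these data known. Named were the members, the family, the 10 nearest genes by rank and the 4 highest members of a list. Others named, such as further list members, were chosen after their values were seen. The procedure was run on simulated data with large planted differences, little noise and near copies of aqp1a.1. Differences were not planted in low genes, so the run does not cover low levels or the spread between real libraries. A planned motif search in promoters and proteins was not run, as no sequences were at hand. Python 3.11.15, pandas 2.3.3 and numpy 2.4.6 were used.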

Additional observations from a re-analysis of the deposited data

How the results depend on the processing

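With 1 library per population, no value was tested and no replicate was left out, and depth is unknown. No paired analysis was possible because no library has a replicate.

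The differences between EH_1 and EH_2 kept their sign and stayed over 2-fold under a pseudocount of 0.1, both other scalings and a filter at 1 FPKM, from 3.30 to 3.48 for aqp1a.1 and from 4.98 to 5.81 for aqp8a.1. Scaling to the upper quartile or to the same FPKM sum moved the median difference of genes of at least 1 FPKM in both by -0.11 and -0.12. The counts of aqp IDs were 4 or 5 towards EH_1 and 5 to 7 towards EH_2 under these alternatives. For the epidermal list the other scalings gave 1 towards EH_1 and 5 or 6 towards EH_2, against 2 and 3. For the mural list they gave 2 towards EH_1, against 3, and for the transport list 4 or 5, against 6. For the ionocyte list they gave 3 towards EH_2, against 2, and for the glial list 6, against 5. With a pseudocount of 0.1 the counts towards EH_2 were 4 for ionocytes, 6 for glia, 7 for lens and retina and 8 for liver, gut and pancreas. Towards EH_1 they were then 9 for the arterial list, 4 for the mural list and 2 for liver, gut and pancreas.

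Rank percentiles fell as low features were left out. With symbols above 0 FPKM, aqp1a.1 lay at 98.6 in EH_1 and 85.3 in EH_2, and aqp8a.1 at 99.1 (double positive), 96.3 (EH_1) and 26.3 (EH_2). With symbols of at least 1 FPKM, aqp1a.1 lay at 99.4, 98.1 and 80.9, and aqp8a.1 at 98.9, 95.1 and 3.99. With symbols of both tables, aqp1a.1 lay at 98.4 in EH_1 and 80.3 in EH_2, and aqp8a.1 at 99.1, 95.1 and 20.9. Adding mipa and mipb to the family gave shares of 89.4%, 80.02% and 11.2% for both genes, and taking the highest row of a symbol gave 11.6% in EH_2. Of the 10 genes nearest in rank, distance in log2(FPKM + 1) shared 2 for aqp1a.1 and 4 for aqp8a.1. Leaving out EH_2, an alternative chosen after seeing the data, shared 0 and 1.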

Other observations

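The gene aqp3b stood at 57.1 FPKM in the double positive library and at 1.43 and 4.21 FPKM in EH_1 and EH_2. The chloride channel gene cftr, a member of the list of transport genes that was named after its values were seen, stood at 109 FPKM in the double positive library and at 0.231 and 0.272 FPKM in EH_1 and EH_2. The tables were normalized separately and use different gene annotations, so these values are given side by side and are not compared.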
